A study of Mus musculus with 13 samples.

Results

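The genes described here are the mouse translation initiation and elongation factors, measured in common lymphoid progenitors (CLPs) sorted from BM. They were chosen by a rule on gene names, set with earlier results of these data known. A gene was a member if its symbol began with Eif and a digit, with Eef1 or with Eef2, or if it was Mcts1 or Denr. Inhibitors and kinases of the factors (Eif4ebp, Eif2ak, and Eef2k names) and pseudogenes were left out. The rule gave 61 of the 24972 genes in the tables. Their levels were examined in 13 libraries, 1 per mouse, from 5 WT, 5 Notch1+/-, and 3 Notch1+/dTAD mice on a C57BL/6 background, 6 to 12 weeks of age. Notch1+/- mice carry 1 disrupted allele of Notch1, and Notch1+/dTAD mice carry 1 allele without the transactivation domain. No mouse was treated. CLPs were sorted as DAPI-/Lin-/Sca1Lo/cKitLo/CD127+/CD135+, and 3′ tag libraries were prepared from their RNA.

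Translation begins when initiation factors bring the small ribosomal subunit, the initiator tRNA, and the capped mRNA together and the start codon is found. Elongation factors then deliver each aminoacyl-tRNA and move the ribosome along the mRNA. Cells that grow and divide need much of this machinery, and several of its mRNAs are among the most abundant in most cell types. The product of Eef1a1 also served the study as a reference gene in qRT-PCR.

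Values are TPM, length-scaled shares of the transcripts of a library that sum to 1000000. Read depth is unknown, so a value of 0 carries no upper limit and the spread between mice is the only measure of precision. Genes at 1 TPM or more numbered 3179 to 3855 in WT, 2818 to 4736 in Notch1+/-, and 3984 to 4663 in Notch1+/dTAD libraries. The CLP markers Flt3, Ly6d, Dntt, and Cd34 were at 1 TPM or more in all 13 libraries, and Il7r in 12. Of the genes of the sort markers, Kit reached 1 TPM in 6 libraries and Ly6a in 5, and Rag2 did in 4. The summed level of the 10 CLP markers was 3187 to 11168 TPM, of which Dntt held 2095 to 9616 TPM. Of the erythroid markers, 8 of 8 were at 0 in all WT libraries, and their sum reached 17.6 TPM at most in any library. The T and NK markers Cd3e, Cd3g, Gzma, and Klrb1c were at 0 in all 13 libraries, whereas Lck was at 1 TPM or more in 10 (up to 560 TPM) and Nkg7 in 5 (up to 1122 TPM, in WT library 10). The sum of the 7 T and NK markers ranged from 0 to 1230 TPM. Summed levels ranged from 0.246 to 805 TPM for 7 myeloid markers and from 4.95 to 1839 TPM for 7 B lineage markers. In bulk samples, fewer cells of a type and less RNA per cell cannot be told apart. Library numbers 1 to 9 and 10 to 14 also differed in sex-linked transcripts. A Y-linked gene was at 1 TPM or more in 6 of the 8 libraries numbered 1 to 9 and in 0 of the 5 others, whereas Xist was at 1 TPM or more in 0 of 8 and in 4 of 5.

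Sequence upstream of the start was examined for the members that the results turn on. RefSeq promoters (GRCm38.p6, 250 bases before to 50 after each start) were matched for 48 of the 61 members. The E-box CACGTG, which reads the same on both strands, was present in 13 members, or 27.1%, against 8.09% of the 27025 genes in the table. With only the first start of each gene, it was in 11 members, or 22.9%, against 7.24% of all genes. Eef1akmt4 and Eef1akmt4-ece2 had the same motifs and GC content, and both are counted here and below. Members among the most abundant or leading the comparisons that hold it are shown in windows of 30 bases, 5′ to 3′ on the strand of the gene, with the E-box in capitals.
Eif5a, chr11:69921443-69921472, minus strand: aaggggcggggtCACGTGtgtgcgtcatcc
Eef2, chr10:81176576-81176605, plus strand: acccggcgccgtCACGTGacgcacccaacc
Eif3k, chr7:28981915-28981944, minus strand: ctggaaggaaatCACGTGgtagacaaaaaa
Eif4a1, chr11:69672595-69672624, minus strand: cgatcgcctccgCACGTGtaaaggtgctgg
Eif4h, chr5:134639488-134639517, minus strand: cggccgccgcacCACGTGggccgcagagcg

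The GC box GGGCGG, searched on both strands, was in 77.1% of member promoters and 38.2% of all promoters. Median GC content was 61% for members and 52.7% for all genes. The core of the RBPj site, TGGGAA, was in 29.2% of member promoters and 28.3% of all promoters, and CCAAT was in 37.5% and 41.1%. These motifs were searched on both strands, and a match is a description of letters only.

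A run of pyrimidines at the start marks mRNAs of the translation machinery. A run of at least 8 C or T within 10 bases before to 20 after the start was found in 9 members, or 18.75%, against 13.0% of all genes and 38.7% of 62 ribosomal protein genes. The windows of Eef1a1 and Eif3f, placed by their RefSeq starts, are shown because each holds such a run, in capitals. Whether the mRNAs begin in these runs was not tested.
Eef1a1, chr9:78481705-78481734, minus strand: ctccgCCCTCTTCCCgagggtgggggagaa
Eif3f, chr7:108934405-108934434, plus strand: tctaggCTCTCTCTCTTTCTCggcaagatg

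The 250 bases before the outermost RefSeq start of Mcts1 are shown because this gene was listed at 0 in every WT library and in no mutant library. The window has a GC content of 42.8% and holds none of the 4 motifs. Over the promoters of both RefSeq starts, Mcts1 does hold GGGCGG and CCAAT and is counted with them above.
Mcts1, chrX:38600221-38600470, plus strand: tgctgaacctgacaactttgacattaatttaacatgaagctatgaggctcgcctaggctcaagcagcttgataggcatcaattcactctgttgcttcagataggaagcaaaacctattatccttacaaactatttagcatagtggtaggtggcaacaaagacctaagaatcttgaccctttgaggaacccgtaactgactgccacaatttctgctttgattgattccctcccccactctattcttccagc

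Members were sorted by the number of libraries that listed them. Of the 61 members, 55 were above 0 in at least 1 library, and 18 of these, or 32.7%, were above 0 in all 13. The share was 7.61% for all genes, 772 of 10149. Another 30 members were above 0 in 4 to 12 libraries and 7 in 1 to 3. The 6 members at 0 in all libraries were Eef1a2, Eef1akmt4-ece2, Eif2b1, Eif3j1, Eif4e1b, and Eif5a2.

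**Figure D1:**
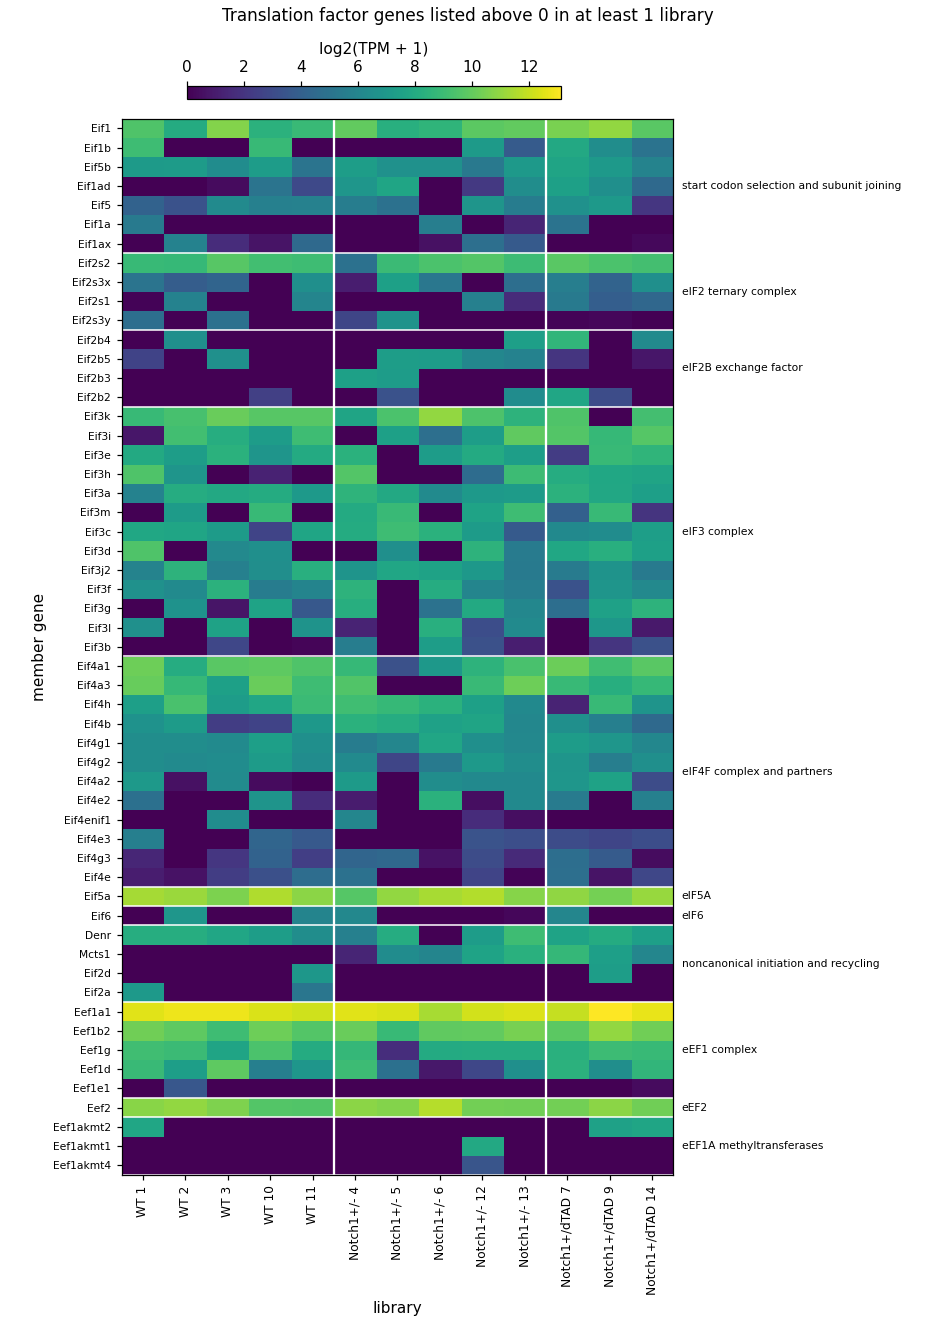
Level of the 55 members above 0 in at least 1 library, as log2(TPM + 1), by role (rows) and library (columns, WT, Notch1+/-, then Notch1+/dTAD). Eef1a1, Eif5a, and Eef2 are high in every library, and Mcts1 is dark in all 5 WT libraries and lighter in the 8 mutant libraries.

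Together the members made up 1.45% to 2.32% of the TPM of a library. Their summed level was 14540 to 20915 TPM in WT, 14898 to 18610 in Notch1+/-, and 18040 to 23220 in Notch1+/dTAD libraries, and the genotypes overlapped. The 83 cytosolic ribosomal protein genes held 32.5% to 40.6% of the TPM. The members therefore summed to 3.58% to 6.72% of the ribosomal protein level.

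**Figure D2:**
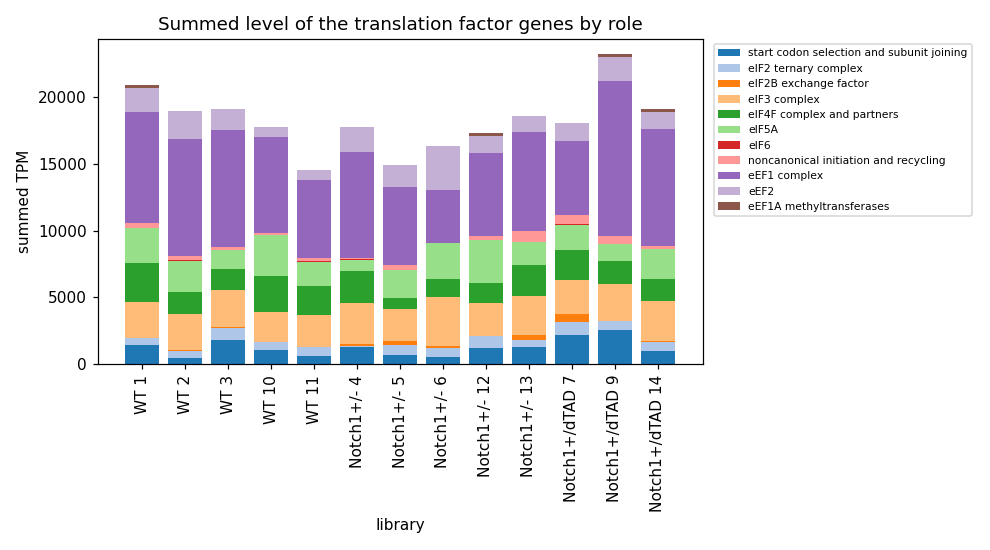
Summed TPM of the members in each library, stacked by role. The eEF1 complex is the largest role in every library, with sums of 3934 to 11570 TPM.

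Elongation factors led the list. Eef1a1, which carries aminoacyl-tRNA to the ribosome, had the highest mean of all members, 5718 TPM, and was the gene at rank 26 of all genes. It measured 6029, 7191, 7092, 5267, and 4615 TPM in WT libraries, 5945, 5360, 2713, 4880, and 5607 in Notch1+/-, and 4008, 8949, and 6684 in Notch1+/dTAD. The groups overlapped, with the lowest value in Notch1+/- library 6 and the highest in Notch1+/dTAD library 9. The log2 fold change was 0.06 ± 0.27 (SE) in Notch1+/dTAD and -0.33 ± 0.26 in Notch1+/- libraries against WT (limma adjusted p = 0.996 and 0.993). Leaving out 1 library gave -0.20 to 0.38 in the former, and -0.13 in the latter without Notch1+/- library 6.

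Eef2, which moves the ribosome by 1 codon, ranged from 763 to 3300 TPM (mean 1587). Its highest value was also in Notch1+/- library 6, where Eef1a1 was lowest. Eef1b2, a subunit of the exchange factor of eEF1A, ranged from 461 to 2026 TPM, and the subunit Eef1g from 2.32 to 679 TPM. The subunit Eef1d was more variable, from 0.822 TPM in Notch1+/- library 6 to 939 TPM in WT library 3. The muscle and neuron isoform Eef1a2 was at 0 in all 13 libraries.

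Genes whose levels ordered the 13 libraries most like Eef1a1 were Crip1 (Spearman rho 0.85), Cdk6 (0.80), Actg1 (0.77), Arl6ip1 (0.77), and Hnrnpa3 (0.75), of 771 genes above 0 in every library. The closest member was Eef1d, with a rho of 0.49. TPM is a share of 1 total, so these values are not independent between genes.

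Eif5a, which helps the ribosome through difficult peptide bonds, was second, from 802 to 3177 TPM with a mean of 2099. Its paralog Eif5a2 was at 0 in all libraries. Other paralogs were also listed unequally. Eif4a1, the helicase of the cap-binding complex, exceeded Eif4a2 in 13 of 13 libraries, Eif3j2 exceeded Eif3j1 in 13 of 13, and Eif1 exceeded Eif1b in 12 of 13, with WT library 10 as the exception. Eif3j1 was at 0 in every library, and whether reads could be split between Eif3j2 and Eif3j1 was not tested. The scaffold Eif4g1 exceeded Eif4g3 in 13 of 13 libraries but Eif4g2 in only 8. The cap-binding genes Eif4e and Eif4e2 had no fixed order, with Eif4e higher in 6, lower in 6, and equal in 1 library. The X-linked Eif2s3x exceeded the Y-linked Eif2s3y in 9 libraries, was lower in 2, and was equal in 2. Eif2s3y was at 1 TPM or more in only 4 libraries, all numbered 1 to 9. That order therefore mostly counts libraries that hardly list Eif2s3y.

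Among initiation factors, the eIF3 complex had 14 members and sums of 2244 to 3639 TPM. Its subunits were far apart, since Eif3k had a mean of 709 TPM and Eif3b a mean of 17.8 TPM. The group of the eIF4F complex and its partners, which also held Eif4a3 and Eif4enif1, had 13 members and sums of 812 to 2917 TPM. The eIF2B genes, which recharge eIF2 with GTP, were the sparsest of the multi-subunit complexes, with none of 5 above 0 in every library and sums of 0 to 624 TPM. Eif6, which keeps ribosomal subunits apart, was above 0 in 5 libraries.

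The number of members at 1 TPM or more was 38, 33, 35, 35, and 37 in WT, 39, 31, 29, 43, and 44 in Notch1+/-, and 43, 40, and 40 in Notch1+/dTAD libraries. The 3 Notch1+/dTAD libraries were all above the WT libraries. The number of all genes at 1 TPM or more did the same, and its part in the number of members was not tested. Members made up 0.952% to 1.10% of the genes at 1 TPM or more in WT and 0.858% to 1.08% in Notch1+/dTAD libraries. At 10 TPM or more, members numbered 30 to 35 in WT and 34 to 38 in Notch1+/dTAD libraries, which overlapped.

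**Figure D3:**
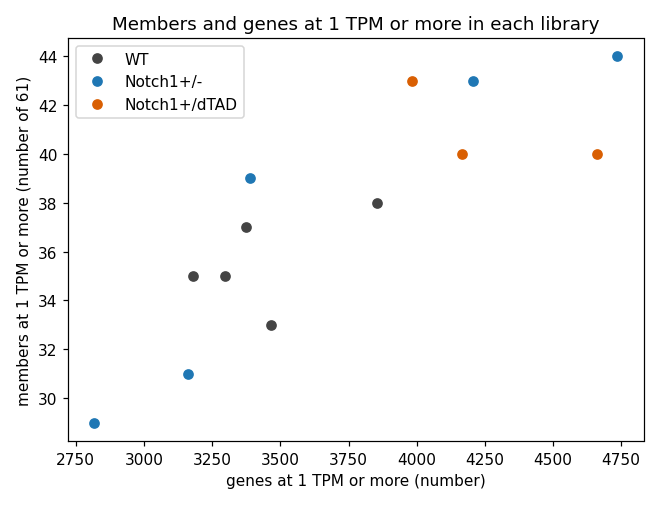
Number of members against number of all genes at 1 TPM or more, 1 point per library, colored by genotype. Libraries with more genes listed tend to list more members, with exceptions. Notch1+/dTAD library 14 has 4663 genes and 40 members, and library 7 has 3984 genes and 43 members. The 3 Notch1+/dTAD libraries lie above the 5 WT libraries on both axes.

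The comparison of Notch1+/dTAD with WT CLPs asks what loss of the transactivation domain of 1 allele changes. Of the 61 members, 46 passed the filter of 1 TPM in at least 3 libraries, and 34 of these had a higher and 12 a lower mean in Notch1+/dTAD libraries. The share higher was 73.9% of members and 61.8% of all genes tested. After quantile normalization the split was 26 to 20 for members and 2314 to 2423 for all genes. The median log2 fold change was 0.32 for members and 0.47 for all 4737 genes tested, and after quantile normalization 0.09 and -0.03. The adjusted threshold of 0.05 was passed by 0 members (limma with trend) and by 0% of all genes. With an unadjusted p under 0.05, 2 of 46 members were higher, a share near the 4.14% of all genes, and 0 were lower, against 0.866%. Without the trend, limma called 1 of 46 members, Mcts1, as higher, against 0.274% of all genes. Mcts1 and Eif1ax were each below 1 TPM in every library of 1 genotype and passed the filter through the other.

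Mcts1 was listed in every mutant library and in no WT library, but did not pass the adjusted threshold. Its product pairs with that of Denr to place initiator tRNA without eIF2, to restart ribosomes after short upstream reading frames, and to recycle small subunits. Mcts1 (chrX:38600578-38613426, plus strand, GENCODE M21, no overlapping gene) was listed at 0 in all 5 WT libraries. It measured 1.56, 81.4, 62.5, 192, and 321 TPM in Notch1+/- libraries 4, 5, 6, 12, and 13, and 430, 168, and 65.2 TPM in Notch1+/dTAD libraries 7, 9, and 14. No mutant library was at 0, and the groups did not overlap.

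In Notch1+/dTAD against WT, Mcts1 had an unadjusted p of 0.000577 and an adjusted p of 0.395 in limma. The exact permutation test gave p = 0.0179, the smallest that 56 splits allow. Without the trend its adjusted p was 0.0229. Of 46 members tested, Mcts1 was the 1 without overlap in the higher direction, against 113 of 4737 genes tested, or 2.39%. The share of members was thus near that of all genes. Because WT is listed at 0, no fold is given. The gene entered the test only through the mutant libraries and so had to differ.

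Of all 24972 genes, 10149 were above 0 in at least 1 library. Among these, Mcts1 alone was at 0 in every WT and at 1 TPM or more in every mutant library. The reverse, at least 1 TPM in every WT and 0 in every mutant library, was seen for 0 genes. Only Luc7l3 joined Mcts1 when the rule was every mutant library above every WT library. The pattern is that of Mcts1 itself, so these counts are a description and not a test. The retrocopy Mcts2 was at 0 in all 13 libraries, and whether reads could be split between the copies was not tested.

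The partner Denr did not share the pattern. It measured 286, 285, 216, 155, and 84.3 TPM in WT, 52.5, 276, 0, 152, and 525 in Notch1+/-, and 194, 270, and 171 in Notch1+/dTAD libraries. The groups overlapped, and the log2 fold change against WT was 0.15 ± 0.83 (SE) in Notch1+/dTAD and -1.53 ± 1.43 in Notch1+/- libraries (limma adjusted p = 0.996 and 0.993). Without Notch1+/- library 6, where Denr is listed at 0, the latter was -0.02. Leaving out 1 library gave -0.14 to 0.30 in the former. Eif2d, which does a similar task in a single protein, was above 0 only in WT library 11, at 121 TPM, and in Notch1+/dTAD library 9, at 157 TPM.

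**Figure D4:**
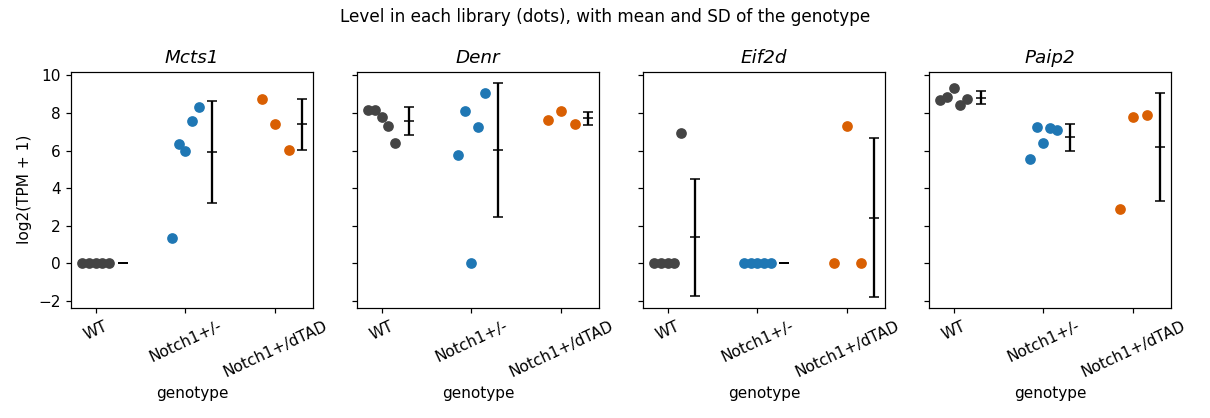
Level of Mcts1, Denr, Eif2d, and Paip2 as log2(TPM + 1) in each library (dots) by genotype, with the mean and SD beside them. Mcts1 lies at 0 in all 5 WT libraries and above it in all 8 mutant libraries, and Paip2 lies lower in every mutant library than in every WT library.

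The second member at an unadjusted p under 0.05 was Eif1ad, a nuclear relative of eIF1A, with 0, 0, 0.296, 32.1, and 6.56 TPM in WT and 178, 90.8, and 21.7 TPM in Notch1+/dTAD libraries. Its log2 fold change was 4.50 ± 1.92 (SE), with an adjusted p of 0.943 in limma, and the groups overlapped. Eif1, which guards start codon choice, had a log2 fold change of 1.29 ± 0.63 (adjusted p = 0.952). The members with the smallest p in the other direction were Eif3k at -3.30 ± 1.65, Eif4h at -2.50 ± 1.43, and Eif1ax at -2.45 ± 1.51, each with an adjusted p of 0.952. Eif3k was listed at 0 in Notch1+/dTAD library 9 and at 718 and 592 TPM in the others, and without library 9 its log2 fold change was -0.18. Eif4h was at 1.48 TPM in Notch1+/dTAD library 7 and at 454 and 111 TPM in the others, and its log2 fold change was -0.33 without library 7 and -4.09 without library 9.

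The comparison of Notch1+/- with WT asks what loss of 1 allele changes. Of the 61 members, 40 passed the filter of 1 TPM in at least 5 libraries, with 16 higher and 24 lower in Notch1+/- libraries. The share higher was 40% of members and 51.45% of all genes tested. The median log2 fold change was -0.22 for members and 0.06 for all 3178 genes. No member passed the adjusted threshold in limma, with or without the trend, and 0% of all genes did with it. With an unadjusted p under 0.05, 1 of 40 members, Mcts1, was higher, a share near the 2.67% of all genes. In the lower direction there were 0 members, against 2.67%.

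For Mcts1 in this comparison, the unadjusted p was 0.00121 and the adjusted p 0.507 in limma, and the exact permutation test gave p = 0.00794, the smallest that the splits of 5 against 5 allow. Of 40 members tested, Mcts1 was the 1 without overlap in the higher direction, against 13 of 3178 genes tested, or 0.409%. Here too it passed the filter through the mutant libraries alone. Both comparisons share the WT libraries.

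Other leading members did not pass. Eif4a1 measured 1192, 280, 871, 932, and 728 TPM in WT and 441, 8.65, 127, 354, and 663 TPM in Notch1+/- libraries, with a log2 fold change of -2.12 ± 1.00 (SE, adjusted p = 0.910). Without Notch1+/- library 5 it was -1.09. Eef1d was at -2.92 ± 1.45, and Eif4a3, a helicase that marks exon junctions, was at -3.36 ± 1.88 with 0 TPM in Notch1+/- libraries 5 and 6. Without either of these libraries Eif4a3 was at -1.93, and without library 6 Eef1d was at -1.94. In the other direction were Eif3b at 2.85 ± 1.39 and Eif4b, a cofactor of the helicase, at 2.36 ± 1.20. Without Notch1+/- library 6, Eif3b was at 1.88.

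**Figure D5:**
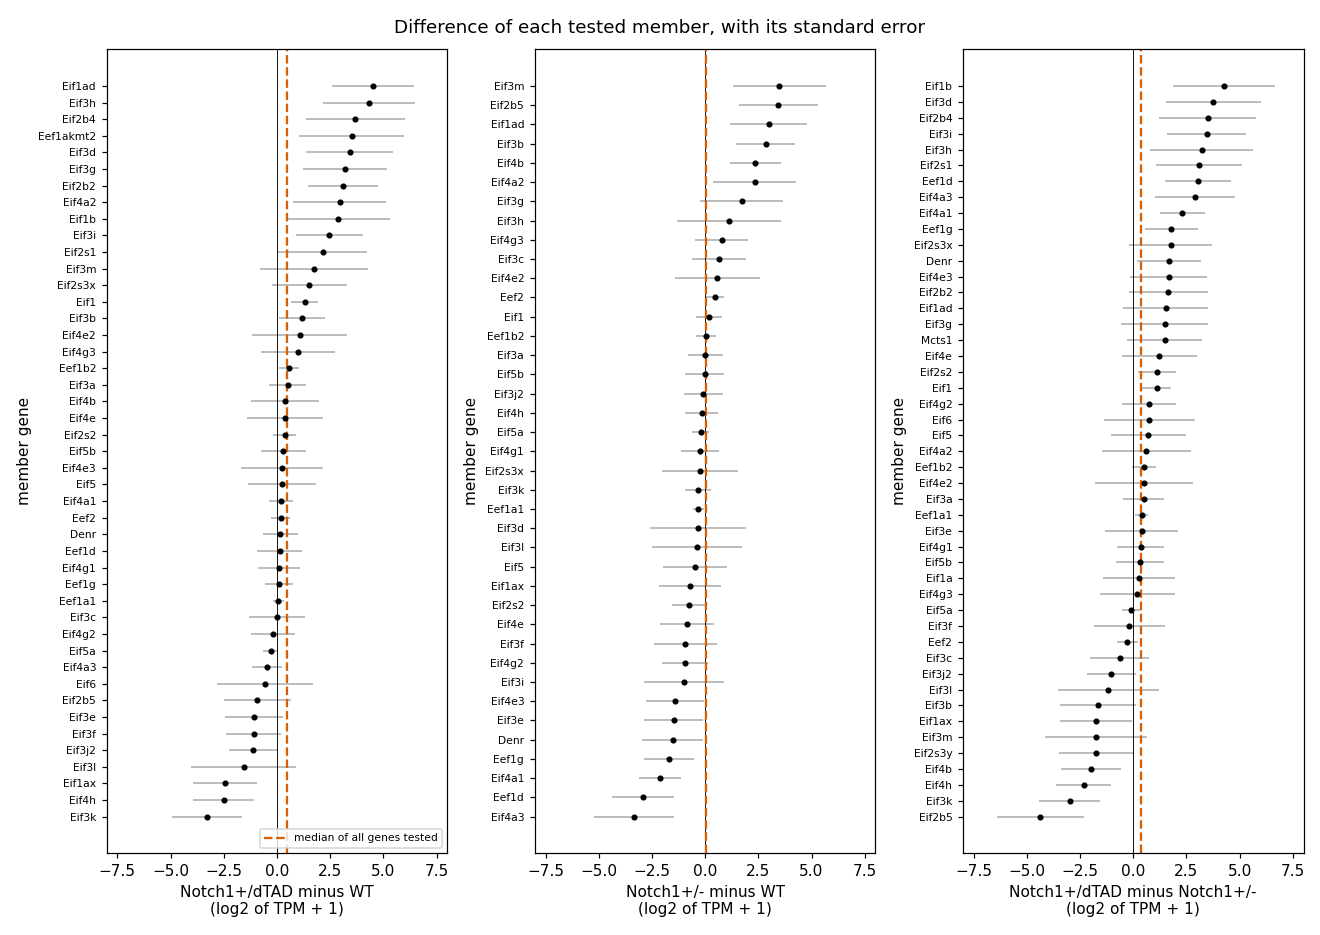
Log2 fold change with SE for each tested member in the 3 comparisons, leaving out members with a genotype listed at 0. Most intervals cross 0, and the dashed line is the median of all genes tested.

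The mutants were compared directly in 1 model of 13 libraries. Of the 61 members, 49 were tested, with 34 higher and 15 lower in Notch1+/dTAD than in Notch1+/- libraries. The share higher was 69.4% of members and 58.9% of all genes tested. The median log2 fold change was 0.62 for members and 0.35 for 6281 genes. After quantile normalization these were 0.37 and -0.02, and without Notch1+/dTAD library 7 the members were at 0.22. Again 0 members passed the adjusted threshold with or without the trend, and 0% of all genes did with it. With an unadjusted p under 0.05, 2 of 49 members (Eef1akmt2 and Eif4a1) were higher, a share near the 4.09% of all genes. Likewise 2 of 49 (Eif2b5 and Eif3k) were lower, against 1.24%. No member was without overlap, against 3.06% of all genes. Eef1akmt2, Eif4enif1, Eif1ax, and Eif2s3y were each below 1 TPM in every library of 1 mutant.

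Eif4a1 measured 1168, 547, and 861 TPM in Notch1+/dTAD libraries, with a log2 fold change of 2.30 ± 1.05 (SE, adjusted p = 0.932), and of 1.27 without Notch1+/- library 5. Eef1akmt2, a methyltransferase of eEF1A, was listed at 0 in all 5 Notch1+/- libraries and at 0, 180, and 206 TPM in Notch1+/dTAD libraries, so no fold is given. Eif2b5, the catalytic subunit of eIF2B, measured 0, 160, 150, 66.0, and 55.6 TPM in Notch1+/- and 3.00, 0, and 0.723 TPM in Notch1+/dTAD libraries, at -4.36 ± 2.06 (adjusted p = 0.932). Eif3k was at -2.98 ± 1.43 and changed direction without Notch1+/dTAD library 9, to 0.14. Mcts1 did not pass between the mutants, at 1.47 ± 1.74 (adjusted p = 0.997), and was at 0.33 without Notch1+/- library 4 and at 0.80 without Notch1+/dTAD library 7.

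Regulators and other factors of the pathway outside the members were read from the same fits. Of 30 such genes in the tables, 15, 15, and 26 were tested in Notch1+/dTAD against WT, Notch1+/- against WT, and between the mutants, and the threshold was passed by 0 of them, with or without the trend. Among unadjusted p-values under 0.05, Paip2 was lower in both comparisons with WT and Eif2ak2 was higher in Notch1+/- libraries. Over all genes the share lower was 0.866% in Notch1+/dTAD, and in Notch1+/- libraries 2.67% were lower and 2.67% higher. Both were named after their values were seen. Paip2, which keeps poly(A)-binding protein off the mRNA, measured 407, 467, 650, 347, and 430 TPM in WT, 45.7, 149, 82.8, 147, and 137 in Notch1+/-, and 6.38, 223, and 237 in Notch1+/dTAD libraries. Every mutant library was below every WT library, which was true of 4 genes, of 10149 above 0 in at least 1 library. In the single comparisons with WT, 35 of 4737 genes tested were without overlap in the lower direction in Notch1+/dTAD libraries. In Notch1+/- libraries 12 of 3178 were. The log2 fold change of Paip2 was -2.62 ± 1.09 (SE, limma adjusted p = 0.943) in Notch1+/dTAD and -2.12 ± 0.68 (adjusted p = 0.756) in Notch1+/- libraries. Without Notch1+/dTAD library 7 the former was -0.96. Eif2ak2, a kinase of eIF2 activated by double-stranded RNA, was above 0 in 1 of 5 WT libraries, at 28.9 TPM in WT library 2. It was above 0 in 5 of 5 Notch1+/- libraries, at 43.6, 270, 30.2, 20.2, and 22.1 TPM, so these groups overlapped. In Notch1+/dTAD libraries it measured 32.3, 0.220, and 0.236 TPM.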

How the data were processed

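CLP RNA from 13 mice was sequenced as strand-specific 3′ tag libraries. The authors mapped the reads to mm10 with STAR. Their deposited values are TPM, in 2 tables, 1 for each mutant beside the same WT columns. The tool and annotation behind TPM are not given in the sources used here. A 3′ library yields about 1 tag per transcript whatever its length, and TPM divides by length, so levels of different genes are less certain than levels of 1 gene between libraries. Of the members, 22 overlap another gene on the same strand in GENCODE M21, 8 of them a snoRNA.

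Genotypes were compared on the scale of log2(TPM + 1) by limma 3.58.1 under R 4.3.3 (eBayes with trend, 2-sided, Benjamini-Hochberg over all genes tested, threshold 0.05). A gene was tested if at least 1 TPM was reached in a number of libraries equal to the size of the smaller group. Single genes were compared by 2-sided exact permutation tests in Python 3.11.15. The scripts were tested on simulated data.

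Members, gene lists, and tests were chosen with earlier results of these data known. Named members are the 10 highest by mean TPM, the 3 higher and 3 lower with the smallest p in each comparison, those without overlap, paralog pairs, and Mcts1, Denr, Eif2d, and Eif6. The written filter for ribosomal protein genes would have removed every Rpl gene, so it was narrowed to names with a digit, l, and a digit. Other settings tried were a pseudocount of 0.1 or of 10, every gene above 0, quantile normalization, eBayes without trend and with robust, a term for library numbers, other samples in the fit, an unadjusted threshold, and leaving out each library. Fits within each range of library numbers were added after seeing the data. The authors' own comparisons were not used.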

Additional observations from a re-analysis of the deposited data

Results flagged for a closer look

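Named members and 4 library measures were examined in the 5 WT and the 5 Notch1+/- libraries for a library far from the rest by Dixon's ratio (critical value 0.71). Of 69 groups with any spread, 20 were marked, all at the high end. Chance marks about 1 in 20 groups of normally distributed values. The ratio was computed on TPM itself, which is skewed and often 0, so that rate does not apply here, and a group with 4 values of 0 is marked by construction.

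WT library 1 stood far above the other WT libraries for Eef1akmt2 at 218 TPM. Notch1+/- library 4 stood far above the other Notch1+/- libraries for Eef1d at 504 TPM, Eif4e at 29 TPM, and Eif6 at 67.8 TPM. WT library 10 stood far above the other WT libraries for Eif1ad at 32.1 TPM, Eif4e2 at 112 TPM, Eif4g1 at 172 TPM, Eif4g2 at 146 TPM, and Eif4g3 at 16.4 TPM. Notch1+/- library 12 stood far above the other Notch1+/- libraries for Eif1b at 142 TPM. WT library 3 stood far above the other WT libraries for Eif2b5 at 94.5 TPM and Eif3b at 5.93 TPM. WT library 11 stood far above the other WT libraries for Eif2d at 121 TPM. Notch1+/- library 5 stood far above the other Notch1+/- libraries for Eif2s3x at 176 TPM and Eif2s3y at 104 TPM. Notch1+/- library 6 stood far above the other Notch1+/- libraries for Eif3b at 158 TPM, Eif3k at 2083 TPM, Eif4e2 at 335 TPM, and Eif4g1 at 215 TPM. Notch1+/- library 13 stood far above the other Notch1+/- libraries for Eif3i at 979 TPM. Eef1akmt2 and Eif2d were each above 0 in 1 WT library only. No member passed the adjusted threshold in the direct comparison of the mutants.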

How the results depend on the processing

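The number of members called was 0 in all 3 comparisons, and 52 of 57 alternatives gave the same count. In Notch1+/dTAD against WT, eBayes without trend called 1 member (Mcts1), an unadjusted p under 0.05 gave 2, and libraries 10 to 14 alone gave 4. That last fit holds 1 Notch1+/dTAD and 2 WT libraries, assumes that the lone library varies like the others, and called 1395 of 6395 genes. An unadjusted p under 0.05 gave 1 member in Notch1+/- against WT and 4 between the mutants. Leaving out each library in turn gave 0 to 0 members in each comparison.

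The adjusted p of Mcts1 in limma, in Notch1+/dTAD against WT, ranged from 0.0229 (eBayes without trend) to 0.622 (libraries 1 to 9 alone). The next lowest was 0.174, without Notch1+/dTAD library 7. This range leaves out the fit of libraries 10 to 14 alone, which holds 1 Notch1+/dTAD library. In Notch1+/- against WT the adjusted p ranged from 0.215 to 0.862 over 20 alternatives. The direction of Mcts1 is fixed by WT values of 0. Of 267 alternatives for 15 fold changes of named members, 1 reversed. Eif3k between the mutants ranged from -4.61 to 0.14 as each library was left out, and the reversal was without Notch1+/dTAD library 9, where it is listed at 0. Median fold changes of members moved in 15 of 54 alternatives. A median counted as moved if it changed by at least the SD of the medians found as each library was left out. That SD is not a spread between mice or between members. In Notch1+/- against WT the median was -0.22, with -0.28 to -0.01 as each library was left out (-0.01 without Notch1+/- library 4 and -0.11 without library 12) and 0.28 in libraries 10 to 14 alone. It ranged from 0.21 to 0.45 in Notch1+/dTAD against WT and from 0.22 to 0.96 between the mutants as each library was left out. The cause was not tested. No paired analysis was possible because library numbers are not shared between genotypes. Depth is unknown and TPM of 0 was common, which limits low members.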
